A study of Mus musculus with 49 samples.

Results

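The MTB to MTE insertions are single copies of 4 clades of mouse transcript (MT) retrotransposons, and were followed in late 2-cell mouse embryos depleted of TBP, the TATA-binding protein. They were chosen by name and by detection: every row of the insertion tables whose name begins with MTB, MTC, MTD or MTE and whose class is ERVL-MaLR LTR, detected by 1 read or more in 25% or more of the 18 embryos, that is in 5 or more. Of 171627 annotated MTB to MTE insertions, 11599 had a read in these embryos and 1256 met the rule. They stood among 40760 insertions of all transposable elements (TEs) that met the same read minimum. By clade they were 399 MTB, 361 MTC, 309 MTD and 187 MTE insertions.

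MT elements belong to the mammalian apparent LTR retrotransposons (MaLRs), relatives of the endogenous retrovirus ERVL that encode no known protein. MTE is the oldest of these clades, followed by MTD, MTC and MTB, and the younger MTA is the best known member. Their long terminal repeats (LTRs) act as promoters in mouse oocytes, where they give rise to many chimeric transcripts, among them the oocyte form of Dicer1, which starts in an MTC element. Rows with the suffix -int are the internal parts between a pair of LTRs. TBP is the part of the general transcription machinery that recognises the TATA box, a motif found in many LTR promoters.

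TBP was removed by Trim-Away, in which the ubiquitin ligase Trim21 degrades a protein to which an injected antibody is bound. F1(C57BL/6JxCBA/H) zygotes received an antibody to TBP (TBP LOF) or mouse IgG (CONTROL) and, 4 h later, mRNA of mCherry-tagged Trim21, so that CONTROL embryos also carried an antibody and Trim21. In a second experiment, zygotes received an antibody to FOXJ3 (FOXJ3 LOF) or rabbit IgG (CONTROL). Embryos were lysed singly at 48 h after hCG, and the 5′ ends of transcripts were sequenced. Depletion acts on the protein, and all groups had the same genotype. Labels gave 9 TBP LOF and 10 CONTROL embryos, and 17 FOXJ3 LOF and 13 CONTROL embryos in 2 library batches. TBP embryos came from 3 collections, but no source used here ties an embryo to its collection. The p-values therefore measure only the spread between embryos. Insertion counts were available here for the TBP experiment alone. The counts name insertions by family and copy number (MTB_dup4668). Their positions, sequences and neighbouring genes were not analysed here, so a read may come from a transcript that starts in the LTR or from a gene exon that overlaps it.

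With 1 CONTROL embryo left out for having fewer than 500000 counted reads, 9 LOF and 9 CONTROL embryos remained. They had 1160150 to 5434808 counted reads. ERCC spike-in RNA, which the lysis buffer shared by the TBP embryos held, took 2.67 to 6.12% of reads in LOF and 2.22 to 3.25% in CONTROL embryos. In single embryos, less RNA per cell and fewer captured molecules cannot be told apart. LOF embryos 7 and 11 had the largest ERCC shares. Tbp RNA, which Trim-Away does not target, was 6.59 to 151 ERCC-normalized counts in LOF and 195 to 672 in CONTROL embryos, without overlap. It fell by 2.14 ± 0.37 (SE) on the log2 scale (adjusted p = 5.26e-06, quasi-likelihood test in edgeR). The late 2-cell markers were detected, all 10 of them with a read, at 660.4 to 2458 normalized counts in sum in LOF and 279.7 to 1332 in CONTROL embryos. Of 8 markers of cumulus and granulosa cells, which surround the zygote, 7 were in the table and 4 of these had no read. Their sum lay between 0 and 13.8 in LOF and between 0 and 47.2 in CONTROL embryos, and of the 3 tested Tnfaip6 was lower (-2.46 ± 0.75, adjusted p = 0.00865; -1.68 and 0.101 with TMM). Foxl2 was at 2.03 ± 1.08 (adjusted p = 0.157; 2.77 and 0.0409 with TMM) and Cyp19a1 at 0.52 ± 1.08 (adjusted p = 0.773; 1.17 and 0.430 with TMM), and the median of the 3 was 0.52. Their part in the results was not tested. Unless stated otherwise, counts were divided by ERCC size factors and n = 9 embryos per group.

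MTB to MTE transcripts were a small part of each library. Family counts gave them 0.209 to 0.366% of counted reads in CONTROL embryos (median 0.265%) and 0.212 to 0.50% in LOF embryos (median 0.404%). In 8 of 9 LOF embryos the share was above the CONTROL median, and in 5 it was above the highest CONTROL embryo. After ERCC scaling, their sum was 3851 to 9857 (median 6236) in CONTROL and 2224 to 9952 (median 5348) in LOF embryos, and the groups overlapped over almost their whole range. In LOF embryos the share of reads thus lay higher, while the amount per spike-in did not separate the groups. The 1256 insertions themselves held 0.135 to 0.240% of reads in CONTROL and 0.165 to 0.390% in LOF embryos.

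The younger the clade, the more of its copies were seen. Of the annotated copies, 3.13% of MTB, 1.13% of MTC, 0.554% of MTD and 0.263% of MTE met the rule. Most were read rarely: an insertion had a median of 22.0 reads over all 18 embryos, the range was 5 to 4668, and 81 had at least 10 reads per embryo on average (30 MTB, 25 MTC, 18 MTD and 8 MTE). Reads were concentrated, with 77 insertions holding 50% of them. In MTB and MTC the most read copy alone held 16.8% and 15.2% of the reads of the clade's insertions that met the rule, and in MTD and MTE 5.77% and 5.59%. A read in every embryo was found for 60 insertions (26 MTB, 21 MTC, 11 MTD and 2 MTE). Just inside the rule, 280 insertions had a read in exactly 5 embryos, with a median of 10 reads in all, and just outside, 417 had a read in exactly 4, with a median of 8.

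Within an embryo, the proportions of the 4 clades do not depend on any scaling. MTE families made up 15.4 to 21.2% of the MTB to MTE reads in CONTROL embryos (median 19%) and 10.6 to 21.3% in LOF embryos (median 11.4%). In 8 of 9 LOF embryos the MTE share was below that of every CONTROL embryo, and LOF embryo 10, at 21.3%, was above them all. MTB families made up 22.1 to 32.7% (median 25.6%) in CONTROL and 24.7 to 38.3% (median 35.9%) in LOF embryos, with 5 LOF embryos above every CONTROL embryo and LOF embryo 10 the lowest of its group. The MTD share was 22.4 to 28.9% in CONTROL and 18.7 to 24.3% in LOF embryos, and all 9 LOF embryos lay below the CONTROL median of 26.1%. MTC took 25.7 to 35.0% in CONTROL and 28.7 to 35.9% in LOF embryos, and the ranges overlapped. LOF embryo 10 had 114 normalized counts of Tbp RNA, within the range of the other LOF embryos. These proportions are a description, without a test.

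The family counts were then tested, with 19357 genes and TE families in the fit. MTEb, an LTR family of the oldest clade, had 95.7 to 227 normalized counts in CONTROL embryos (median 147) and 28.0 to 113 in LOF embryos (median 85.7). All 9 LOF embryos lay below the CONTROL median and the ranges overlapped only slightly. Its log2 fold change was -0.97 ± 0.30 (adjusted p = 0.00962, edgeR) with ERCC scaling, and -0.14 ± 0.20 (adjusted p = 0.630) with TMM scaling, which assumes that most features do not change. The internal family MTE-int had 40.0 to 156 counts (median 99.3) in CONTROL and 13 to 98.5 (median 43.5) in LOF embryos. Again every LOF embryo was below the CONTROL median, and the log2 fold change was -1.05 ± 0.33 (adjusted p = 0.0114; -0.28 and 0.414 with TMM). MTEa had 115 to 409.6 counts (median 296) in CONTROL and 58.9 to 257 (median 159.6) in LOF embryos, a change of -0.80 ± 0.29 (adjusted p = 0.0305; 0.02 and 0.960 with TMM).

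**Figure D1:**
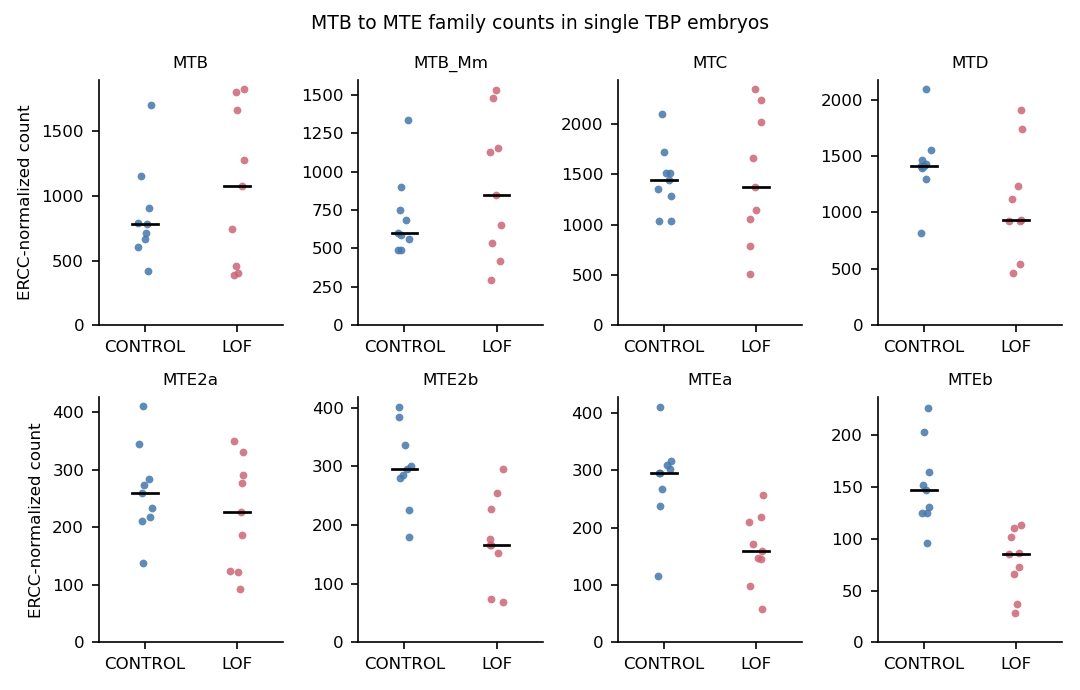
ERCC-normalized family counts of the 8 LTR families in single embryos of the TBP experiment, with linear axes from 0, a point per embryo (9 CONTROL, 9 LOF) and a line at the median. MTEb, MTEa and MTE2b lie lower in LOF embryos, with medians of 85.7, 159.6 and 166 against 147, 296 and 295, while LOF and CONTROL embryos overlap widely for MTB, MTB_Mm, MTC and MTE2a.

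In all, 6 of the 17 MTB to MTE families fell with ERCC scaling and 0 rose, against a background of 29.8% of all genes and TE families lower and 1.34% higher. All 6 were of the MTE clade, which has 9 families. Besides the 3 above, MTE2b changed by -0.77 ± 0.29 (adjusted p = 0.0382), MTEb-int by -1.55 ± 0.57 (adjusted p = 0.0297) and MTEa-int by -1.21 ± 0.48 (adjusted p = 0.0495). The MTE2a LTRs were at -0.25 ± 0.30 (adjusted p = 0.584), and MTE2a-int and MTE2b-int, with 156 and 362 reads in all, were not past the threshold either. MTEb-int and MTEa-int, among the falls, were also thinly read, with 153 and 282 reads in all. In the same table the median log2 fold change of all features was -0.72, that of the 17 families -0.29. With TMM scaling the median of all features moved to 0.11, the 6 falls were lost and 6 other families rose: MTB, MTB_Mm, MTC, MTC-int, MTD-int and MTE2a. The background then was 12.7% lower and 12.8% higher. Without LOF embryos 7 and 11, a choice made after seeing the data, 2 families fell with ERCC scaling. Leaving out single embryos left 2 to 6 families lower, with 2 without LOF embryo 7, LOF embryo 11 or CONTROL embryo 6, and 3 without LOF embryo 5 or 6. MTEb and MTE-int passed in all 18 of these fits, while MTEa-int lost its call in 13 (adjusted p up to 0.216), MTE2b in 7, MTEb-int in 5 and MTEa in 4.

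The younger families did not pass the threshold with ERCC scaling. The MTB LTR family had 418 to 1703 normalized counts in CONTROL embryos (median 785) and 391 to 1824 in LOF embryos (median 1078). LOF embryos were spread more widely than CONTROL embryos and enclosed them, and the log2 fold change was 0.32 ± 0.32 (adjusted p = 0.510, edgeR, ERCC scaling), or 1.11 ± 0.26 (adjusted p = 0.00177) with TMM. MTB_Mm had 487 to 1336 counts in CONTROL and 295 to 1536 in LOF embryos and a change of 0.33 ± 0.31 (adjusted p = 0.465; 1.14 and 5.25e-04 with TMM). MTC had 1033 to 2100 counts (median 1441) in CONTROL and 511 to 2347 (median 1370) in LOF embryos, a change of 0.01 ± 0.30 (adjusted p = 0.980; 0.83 and 0.00425 with TMM). MTD, the most numerous family among the insertions, had 818 to 2093 (median 1412) and 464 to 1909 (median 933), a change of -0.40 ± 0.29 (adjusted p = 0.339; 0.41 and 0.138 with TMM). In 7 of 9 LOF embryos MTD lay under the median of CONTROL embryos. Their internal families MTB-int, MTB_Mm-int, MTC-int and MTD-int lay between -0.29 and 0.29 with ERCC scaling.

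From ERCC to TMM scaling the 17 families shifted by 0.76 to 0.85, so the position of a family relative to all features is nearly fixed between the scalings and is given as a description. MTB stood 1.03 above the median log2 fold change of all features with ERCC and 1.01 with TMM scaling, MTB_Mm 1.05 and 1.03, MTC 0.73 and 0.73, and MTD 0.32 and 0.30. MTEb stood 0.26 below the median by the same measure with ERCC scaling (-0.26) and at -0.25 with TMM, and MTEa and MTE2b were near it (-0.08 and -0.05 with ERCC, -0.09 and -0.08 with TMM). MTE-int stood at -0.33 with ERCC and -0.38 with TMM, MTEa-int at -0.49 and -0.48, and MTEb-int at -0.83 and -0.89. MTE2a-int stood at -0.12 and -0.18, while MTE2a (0.47 and 0.49) and MTE2b-int (0.77 and 0.79) lay above the median. For comparison, in the same fit MTA_Mm stood at 1.06 and 0.98 and the ERVL LTR MT2_Mm at 1.02 and 0.93, while the MaLRs ORR1A0 and ORR1A1, activated in the 2-cell embryo, stood at -0.87 and -0.98 and at -1.48 and -1.56. These positions have no test of their own.

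**Figure D2:**
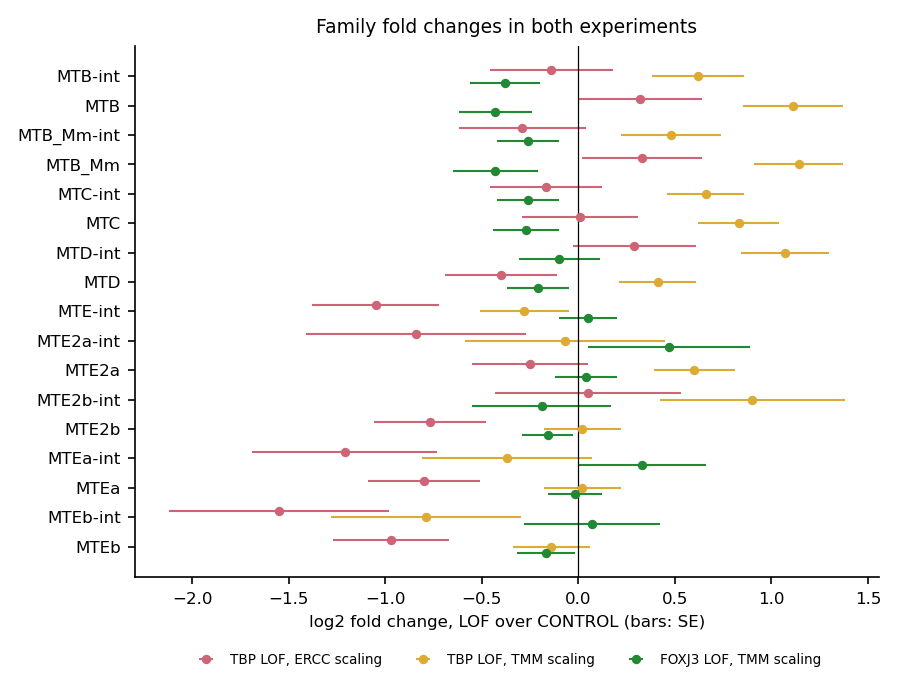
Log2 fold change of LOF over CONTROL with its standard error for each of the 17 families, for TBP LOF with ERCC scaling, TBP LOF with TMM scaling and FOXJ3 LOF with TMM scaling. TMM scaling shifts every TBP value to the right, for example MTEb from -0.97 to -0.14 and MTB_Mm from 0.33 to 1.14, while FOXJ3 values lie between -0.43 and 0.47.

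Single insertions were tested together with genes, 59207 features in all. Of the 1256 insertions, 67 fell and 16 rose with ERCC scaling (5.33% and 1.27%), and 212 had an unadjusted p under 0.05. The background was 14.6% lower and 0.760% higher over all features, and 11.6% lower and 0.844% higher over single TE insertions. With TMM scaling 40 fell and 55 rose, against 6.76% and 2.63% of all features. The 40 falls with TMM were all among the falls with ERCC scaling, and the 16 rises with ERCC scaling all among those with TMM. Over all features the same held for 4004 falls and 450 rises. TMM scaling moved most values upward, so this sharing is no check of the calls. Without LOF embryos 7 and 11, 26 fell and 9 rose. The count of rises depended on single embryos, with 4 without CONTROL embryo 8, 7 without LOF embryo 9, 9 without CONTROL embryo 1 or 5 and 10 without CONTROL embryo 3 or LOF embryo 1 or 5. Without a filter on low counts 48 fell and 5 rose, and with edgeR's own filter, which kept 41 insertions, 5 fell and 5 rose. Shares over all features are not given for these fits with fewer embryos or other filters. Their counts are therefore not read as an excess or a lack. The median log2 fold change of the insertions was 0.06 with ERCC and 0.64 with TMM scaling, which is 0.75 and 0.70 above the median of all features (-0.69 and -0.06). These counts cannot be read as support on their own: 25 insertions had reads in CONTROL embryos only and met the rule through them, all 25 of them among the falls, and 15 had reads in LOF embryos only, of which 9 were among the rises.

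By clade, 8 of 399 MTB insertions fell and 6 rose, 21 and 3 of 361 MTC, 22 and 3 of 309 MTD, and 16 and 4 of 187 MTE. Falls were thus 2.01%, 5.82%, 7.12% and 8.56% of the tested insertions, each below the share over all features. Among the falls, 3 MTB, 4 MTC, 12 MTD and 6 MTE insertions had no read in LOF embryos. They met the rule through CONTROL embryos alone, so the order of these shares is no support for a difference between clades. Rises were 1.5%, 0.831%, 0.971% and 2.14%, which for MTC and MTD, with 3 each, is near the 0.760% of all features and the 0.844% of single TE insertions. Of the 16 rises, 9 had no read in CONTROL embryos, MTB and MTE copies among them. They met the rule through LOF embryos alone, so no clade's share of rises is read as an excess. The median log2 fold change was 0.34 for MTB, 0.04 for MTC, -0.29 for MTD and -0.57 for MTE. With TMM scaling the medians were 0.89, 0.66, 0.31 and 0.12. Then 3, 12, 13 and 12 insertions fell and 17, 15, 14 and 9 rose, against 6.76% lower and 2.63% higher over all features. Single insertions shifted by -0.10 to 1.47 (median 0.57) between the scalings, and the order of the medians under both is no support for it. With insertions that lacked reads in a group set to the bound that 3 reads over that group give, the medians with ERCC scaling were 0.33, 0.04, -0.29 and -0.57, but this replacement can hardly move a median and is no check of the clade order. Without single embryos the median of MTC insertions lay between -0.12 and 0.19, and that of all 1256 between -0.08 and 0.22, so the sign of neither was stable. Among the 81 insertions with at least 10 reads per embryo the order was not kept, with medians of 0.55 (MTB, 30 insertions), 0.61 (MTC, 25), 0.33 (MTD, 18) and 0.38 (MTE, 8), beside -0.28 for all 6432 TE insertions of that depth. Of these 81, 8 fell and 3 rose (9.88% and 3.70%), against 14.5% and 1.41% of the 6432 TE insertions. With TMM scaling 3 of the 81 fell and 23 rose, against 499 and 431 of the 6432.

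**Figure D3:**
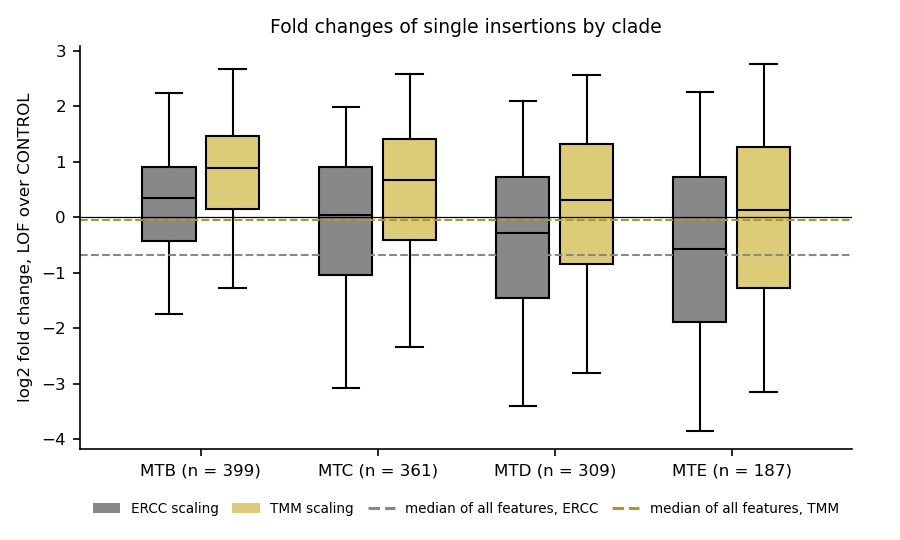
Log2 fold changes of LOF over CONTROL for the insertions of each clade with ERCC scaling (grey) and TMM scaling (yellow), with boxes from the lower to the upper quartile, a line at the median, whiskers to the 5th and 95th percentile, and dashed lines at the median of all 59207 features. Medians descend from 0.34 (MTB) to -0.57 (MTE) with ERCC scaling and from 0.89 to 0.12 with TMM scaling.

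LTR and internal insertions had medians of 0.08 over 1073 LTR insertions (59 fell, 15 rose) and of -0.03 over 183 internal insertions (8 fell, 1 rose). With TMM scaling the medians were 0.65 (36 fell, 50 rose) and 0.56 (4 fell, 5 rose), beside 2341 falls and 894 rises of 40760 TE insertions. With ERCC scaling falls were 5.50% and 4.37% and rises 1.40% and 0.546% of them, beside 11.6% and 0.844% of all TE insertions. This is the background for the family counts that follow as well. Within the MTE clade, the families differed in value: MTE-int insertions had a median of -1.95 (3 of 9 fell), MTE2b -0.94 (6 of 46 fell, 1 rose), MTEb -0.89 (2 of 16 fell), MTEa -0.57 (5 of 49 fell) and MTE2a 0.01 (0 of 52 fell, 3 rose). In the same order, the TMM medians were -1.35 (2 fell), -0.34 (4 fell, 5 rose), -0.12 (2 fell), 0.12 (4 fell) and 0.78 (4 rose). For comparison, all insertions whose names begin with MTA, ORR1A0 or ORR1A1 were taken. With ERCC scaling the MTA median was 0.29 (21 of 4758 fell, 36 rose). ORR1A0 was at -1.54 (245 of 1000 fell, 2 rose) and ORR1A1 at -2.27 (314 of 790 fell, 0 rose). With TMM scaling the medians were 0.85 (8 fell, 193 rose), -0.99 (134 fell, 3 rose) and -1.63 (190 fell, 0 rose).

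The strongest falls by adjusted p were in MTB, MTC-int, MTE2b, MTEa and MTEb copies. MTB_dup6143 had 0 to 33.7 normalized counts in CONTROL embryos (median 4.03) and 0 to 0.820 in LOF embryos (median 0), with a read in 8 and in 1 embryos. CONTROL embryo 1 alone held the value of 33.7, the next was 12.8, and LOF embryo 10 was the only LOF embryo with a read. The log2 fold change was -5.42 ± 1.07 (adjusted p = 0.00132, edgeR; -4.77 and 0.00770 with TMM). MTEb_dup10473 ranged from 0 to 74.9 (median 8.48) in CONTROL and from 0 to 1.64 (median 0) in LOF embryos, with a change of -5.05 ± 1.07 (adjusted p = 0.00242). Its highest CONTROL value, in embryo 8, was far above the next, 16.6. MTE2b_dup12066 was more even, with 0 to 20.2 (median 6.94) in CONTROL and 0 to 1.22 (median 0) in LOF embryos, 8 against 3 embryos with a read, and a change of -4.10 ± 0.98 (adjusted p = 0.00587).

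Of MTC internal copies, MTC-int_dup3333 had 1.35 to 101 counts (median 20.4) in CONTROL and 0 to 10.9 (median 0) in LOF embryos, and LOF embryo 6 held the 10.9 while the other LOF embryos had at most 1.59. Its change was -4.51 ± 1.00 (adjusted p = 0.00349). MTC-int_dup2597 had 1.68 to 18.5 (median 5.42) in CONTROL and 0 to 1.59 (median 0) in LOF embryos, so that the groups did not overlap, and changed by -4.08 ± 0.98 (adjusted p = 0.00608). MTC-int_dup2887 had 10.4 to 64.5 (median 27.1) and 0 to 16.4 (median 4.83), with reads in 8 of 9 LOF embryos, and changed by -2.34 ± 0.60 (adjusted p = 0.00969; -1.63 and 0.0733 with TMM). All 9 LOF embryos lay below the CONTROL median for each of the 10 strongest falls. These were chosen by adjusted p in the same embryos, so this is a description and no support.

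Among these 10, 3 had no read in any LOF embryo, so that only a bound can be given against 3 reads over the 9 embryos. Such a bound pools the reads of a group and leaves out the spread between embryos, so it is no limit over embryos. MTEa_dup19344, with reads in 6 CONTROL embryos (0 to 16.3, median 3.33), was at least 20.7-fold lower, or at least 11.6-fold without CONTROL embryo 8, which held 22 of its 42 reads. MTEb_dup7111, with reads in 7 (0 to 6.65, median 1.43), was at least 11.8-fold lower, or at least 7.40-fold without CONTROL embryo 9, which held 14 of its 24 reads. MTEa_dup6521, with reads in 6 (0 to 5.42, median 1.43), was at least 8.37-fold lower. MTEa_dup3764, the remaining copy, had 19 reads over CONTROL and 1 over LOF embryos (-4.26 ± 1.08, adjusted p = 0.00936). These 3 met the rule through CONTROL embryos alone, so their calls are no support for a direction. Of the 7 with a read in LOF embryos, all but MTC-int_dup2887 had reads in 1 to 3 LOF embryos and in 5 to 9 CONTROL embryos. They too could meet the rule through CONTROL embryos alone, so their calls are no support for a direction. Of the 7, MTC-int_dup2887 did not pass with TMM scaling, and all 7 passed whichever embryo was left out. The size of the change rested on single embryos for 4 of them: MTC-int_dup3333 was at -6.69 without LOF embryo 6, MTEb_dup10473 at -3.91 without CONTROL embryo 8 and -5.72 without LOF embryo 10, MTB_dup6143 at -4.75 without CONTROL embryo 1 and -6.30 without LOF embryo 10, and MTC-int_dup2597 at -4.89 without LOF embryo 9.

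Rises were fewer, and most rested on few reads. MTB_Mm_dup4317 was the clearest, with 1.34 to 12.1 counts (median 5.42) in CONTROL and 9.02 to 51.3 (median 34.8) in LOF embryos. Every LOF embryo was above the CONTROL median, the ranges overlapped only at their ends, and the change was 2.35 ± 0.56 (adjusted p = 0.00571, edgeR; 2.89 and 0.00197 with TMM). MTC_dup6075 had 12.6 to 67.2 (median 38.8) in CONTROL and 23.3 to 208 (median 96.6) in LOF embryos, 7 of 9 above the CONTROL median, a change of 1.27 ± 0.41 (adjusted p = 0.0347), and lost its call in 8 of the 18 fits that left out an embryo (adjusted p up to 0.0817). MTC_dup21392, at 0 to 1.34 in CONTROL and 0.614 to 17.4 in LOF embryos, had reads in 3 CONTROL and all 9 LOF embryos (3.27 ± 0.96, adjusted p = 0.0204). This copy could meet the rule through LOF embryos alone and not through CONTROL embryos, so its call is no support for a direction. The other 7 had no read in CONTROL embryos and 11 to 19 reads over the LOF embryos. The bound on their rise, which again leaves out the spread between embryos, lay between at least 2.48-fold (MTE2b_dup13288) and at least 4.29-fold (MTC_dup17725) higher. MTB_dup5213 was at least 2.71-fold higher, but at least 1.29-fold without LOF embryo 7, which held 7 of its 12 reads. They were MTC_dup17725, MTB_Mm_dup3203, MTB_dup5213, MTD-int_dup343, MTE2a_dup4332, MTE2a_dup5997 and MTE2b_dup13288, each with reads in 5 or 6 LOF embryos. These 7 met the rule through LOF embryos alone, so their calls are no support for a direction. When single embryos were left out, MTB_dup5213 lost its call in 3 of 18 fits (adjusted p up to 0.0928). MTD-int_dup343, MTE2a_dup4332, MTE2a_dup5997 and MTE2b_dup13288 could be fitted in 13 of these, since without 1 of their 5 LOF embryos they no longer met the read minimum, and lost the call in 2, 2, 4 and 9 of the 13. MTE2a_dup11314, named after its values were seen because it had the most reads of the MTE rises (142), had reads in 4 LOF embryos and 1 CONTROL embryo, and its mean of 8.12 ± 17.8 (SD) in LOF embryos against 0.448 ± 1.34 in CONTROL embryos rested on few of them (3.99 ± 1.37, adjusted p = 0.0477).

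**Figure D4:**
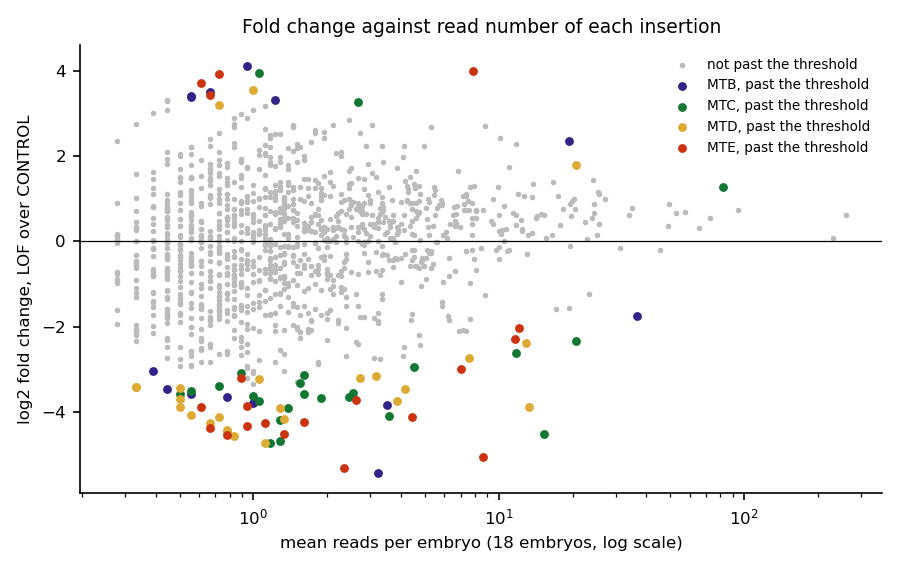
Log2 fold change of LOF over CONTROL (ERCC scaling) against mean reads per embryo on a log axis for each of the 1256 insertions, with those past the threshold coloured by clade. Most of the 67 falls and 16 rises lie under 10 reads per embryo, and the pair of copies with the most reads, MTB_dup4668 and MTC_dup12852, lie at 0.63 and 0.08.

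Of the 2 copies of each clade with the highest CONTROL mean, 8 in all, MTEa_dup17811 alone passed the test with ERCC scaling. Counts were not divided by length, so the copies are ordered here by count only. MTB_dup4668, the most read of all, had 86.8 to 552 normalized counts (median 173) in CONTROL and 20.5 to 623 (median 343) in LOF embryos, and 6 of 9 LOF embryos were above the CONTROL median. Its change was 0.63 ± 0.46 (adjusted p = 0.399; 1.32 and 0.0413 with TMM). MTC_dup12852 was steadier, with 145 to 304 (median 199) in CONTROL and 100.1 to 363 (median 211) in LOF embryos (0.08 ± 0.28, adjusted p = 0.906). These 2 copies together held 11.1% of all reads of the 1256 insertions, and in every embryo the most read insertion was one of them: MTC_dup12852 in 5 of 9 CONTROL embryos and MTB_dup4668 in 7 of 9 LOF embryos.

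The second most counted MTC copy, MTC_dup25227, had 21.7 to 115 counts (median 49.9) in CONTROL and 36.2 to 178 (median 97.1) in LOF embryos, with 8 of 9 LOF embryos above the CONTROL median (0.73 ± 0.36, adjusted p = 0.182; 1.42 and 0.0132 with TMM). MTB_Mm_dup893 was at 0.32 ± 0.48 (adjusted p = 0.726), MTD_dup28709 at -0.20 ± 0.38 (adjusted p = 0.793; 0.45 and 0.373 with TMM) and MTD-int_dup1280 at 0.67 ± 0.47 (adjusted p = 0.377), all with overlapping groups. The 2 MTE copies were lower in LOF embryos in value. They were chosen for a high CONTROL mean, which favours lower LOF values, so this is no support for a fall. Of the 8 MTE insertions with at least 10 reads per embryo, 4 had a negative and 4 a positive change (median 0.38). MTEa_dup17811 had 1.81 to 34.2 counts (median 23.3) in CONTROL and 0 to 14.3 (median 3.62) in LOF embryos, all 9 below the CONTROL median, and changed by -2.29 ± 0.79 (adjusted p = 0.0478; -1.75 and 0.131 with TMM), a call lost in 13 of 18 fits that left out an embryo. MTE-int_dup1711 had 13.6 to 53.8 (median 30.4) and 0 to 33.3 (median 6.56), 8 of 9 below the median (-1.56 ± 0.67, adjusted p = 0.121).

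**Figure D5:**
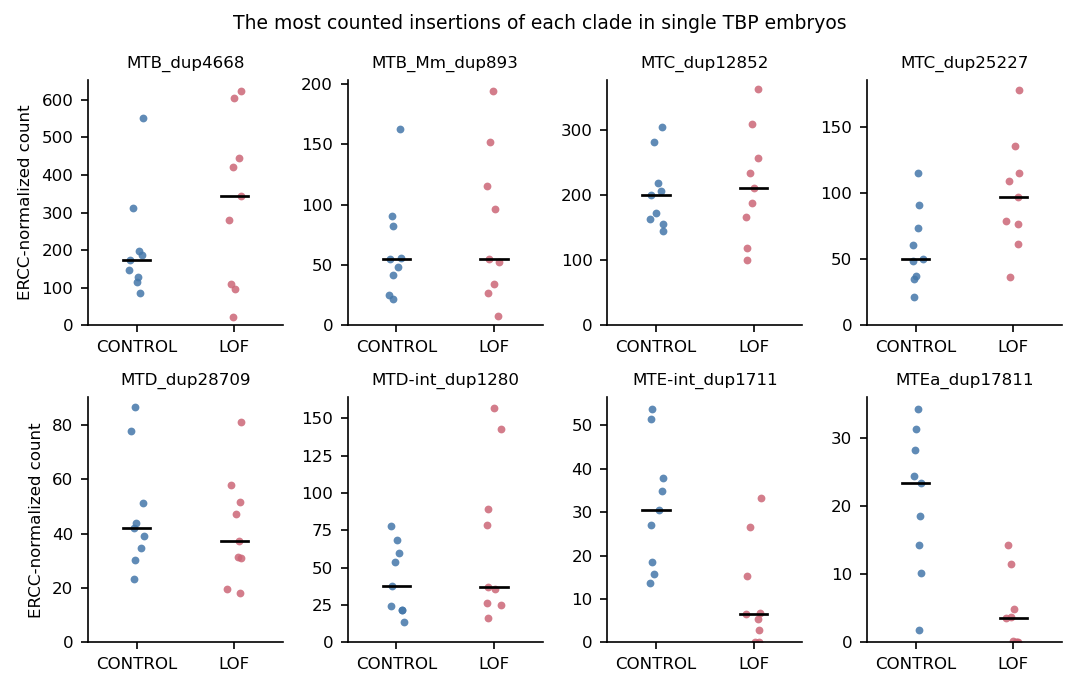
ERCC-normalized counts, on linear axes from 0, of the 2 insertions of each clade with the highest CONTROL mean, with a point per embryo (9 CONTROL, 9 LOF) and a line at the median. LOF medians are above CONTROL medians for MTB_dup4668 (343 against 173) and MTC_dup25227 (97.1 against 49.9) and below them for MTE-int_dup1711 (6.56 against 30.4) and MTEa_dup17811 (3.62 against 23.3). Choosing copies by CONTROL mean favours lower LOF values.

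Apart from copies named above, 6 of the 11 copies past the threshold with at least 10 reads per embryo are given here because of that depth, a choice made after their values were seen. MTC_dup7626 had 9.03 to 28.5 counts (median 21.5) in CONTROL and 0 to 8.45 (median 1.59) in LOF embryos, without overlap, and changed by -2.62 ± 0.72 (adjusted p = 0.0141; -2.08 and 0.0496 with TMM). It and MTC-int_dup2597 were the 2 insertions of 1256 that were lower in LOF embryos with no overlap between groups, against 2.71% of all features, and 0 were higher without overlap, against 0.00338%. MTB_Mm_dup513, the deepest of the 6, had 15.6 to 95 (median 48.9) in CONTROL and 1.46 to 34.4 (median 12.6) in LOF embryos (-1.75 ± 0.52, adjusted p = 0.0212; -0.96 and 0.254 with TMM). MTD_dup49212, MTD_dup14424 and MTE2b_dup3691 changed by -2.38, -3.88 and -2.02, and MTD_dup34617 by 1.79. With TMM scaling MTD_dup49212 (-1.68, adjusted p = 0.102) and MTE2b_dup3691 (-1.55, adjusted p = 0.127) did not pass. MTD_dup14424 was at -6.46 without LOF embryo 10, which held 9.02 normalized counts. For each of the 5 falls of this group all 9 LOF embryos lay below the CONTROL median, and for MTD_dup34617 all 9 lay above it. Here too the copies were chosen for passing in the same embryos, so this is no support. Leaving out single embryos ended the call of MTE2b_dup3691 in 14 of 18 fits (adjusted p up to 0.0800) and that of MTD_dup34617 in 10 (up to 0.0742).

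FOXJ3, a forkhead transcription factor, was depleted in the same way, which asks whether MTB to MTE families move with loss of another factor. In 16 LOF and 13 CONTROL embryos, 0 of the 17 families passed the threshold (edgeR quasi-likelihood test with TMM scaling and library batch as a covariate). Of these families 2 had an unadjusted p under 0.05, and DESeq2 and ERCC scaling also called 0. The 6 falls after TBP depletion were found with ERCC scaling, and with TMM that fit had 0 falls and 6 rises. Over all 19518 genes and TE families the test called 2, or 0.0102%. MTB had a CPM (reads scaled to a common total) of 298 to 1194 (median 466) in CONTROL and of 243 to 797 (median 347) in LOF embryos, a log2 fold change of -0.43 ± 0.19 (adjusted p = 0.860). Within library batches it was -0.78 in batch 1 and -0.02 in batch 2. MTB_Mm was at -0.43 ± 0.22 (adjusted p = 0.877; -0.88 in batch 1 and 0.10 in batch 2), MTC at -0.27 ± 0.17 and MTD at -0.21 ± 0.16. The MTE LTR families lay between -0.17 (MTEb, ± 0.15) and 0.04 (MTE2a, ± 0.16). Whether TBP and FOXJ3 depletion differ in their effect on these families was not tested.

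Factors that act on such promoters are given beside these results, and their part in them was not tested. Of 12 factors of TATA promoters, 2 fell and 0 rose with ERCC scaling, with a median of -0.25 beside -0.72 for all features, while with TMM 1 fell and 3 rose (Gtf2a1, Gtf2a2 and Gtf2b; median 0.57). The falls with ERCC scaling were those of Tbp itself and Dr1, which with Drap1 forms a repressor that binds TBP (-1.21 ± 0.31, adjusted p = 0.00170; -0.40 and 0.168 with TMM). Drap1, with the highest value of the list, was at 0.46 ± 0.65 (adjusted p = 0.657). Of 13 factors of MaLR and ERVL silencing, 8 fell and 0 rose (median -1.0), and 2 fell and 2 rose with TMM. The background for these and the following lists is that of the family fit, 29.8% lower and 1.34% higher with ERCC scaling and 12.7% lower and 12.8% higher with TMM. The largest change was in Chaf1b, a subunit of the histone chaperone CAF-1, at -2.46 ± 0.45 (adjusted p = 1.43e-05; -1.62 and 0.00175 with TMM). Trim28, the corepressor of KRAB zinc finger proteins, was at -1.29 ± 0.32 (adjusted p = 0.00107; -0.46 and 0.160 with TMM), and Cbx1, a heterochromatin protein, at 0.62 ± 0.34 (adjusted p = 0.171; 1.46 and 8.26e-05 with TMM).

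Transcripts that are stored in oocytes, as those of MT elements are, were described beside them. Of 17, 1 fell and 0 rose with ERCC scaling, and their median was 0.08, while 1 fell and 12 rose with TMM. The fall was that of Zp3, a protein of the zona pellucida, at -1.83 ± 0.34 (adjusted p = 2.29e-05; -1.0 and 0.00566 with TMM), and the highest value that of Bmp15, an oocyte growth factor, at 0.69 ± 0.30 (adjusted p = 0.0753). Their sum took 0.330 to 0.766% of counted reads in CONTROL and 0.721 to 1.32% in LOF embryos, and its part in the values of the MT families was not tested. Of the late 2-cell markers, 9 were tested, of which 3 rose (median 0.66), and 6 rose with TMM (median 1.54). Dicer1 had 71.8 to 132 normalized counts in CONTROL and 24.1 to 103 in LOF embryos, all 9 below the CONTROL median, with a change of -0.52 ± 0.30 (adjusted p = 0.200; 0.30 and 0.298 with TMM). The gene counts do not tell its MTC start from its other starts.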

How the data were processed

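Single-embryo Smart-seq+5′ libraries were used. The authors trimmed reads with Trimmomatic, mapped the 5′ reads with STAR 2.7.11a to GRCm38 and counted the second read with TEcount (families) and TElocal (insertions). The deposited values are estimated counts (expected counts), not normalized, all whole numbers. No source used here says how reads that map to several copies were shared out or whether strand was used. 1 TBP CONTROL and 1 FOXJ3 LOF embryo had fewer than 500000 counted reads and were left out. Features with a read in at least 25% of embryos were tested in edgeR 4.0.16 (R 4.3.3; quasi-likelihood, two-sided), Benjamini-Hochberg adjusted over all features, threshold 0.05. Size factors for TBP embryos came from 42 ERCC transcripts and FOXJ3 embryos were scaled by TMM with batch as a covariate. Standard errors were derived from edgeR's F statistic, and ± is SE. Insertions named are, per direction, the 10 of smallest adjusted p and the 2 with the highest CONTROL mean per clade. The members and gene lists were chosen with earlier results of these data known. TMM, DESeq2 1.42.0, other filters, left-out embryos and blocks were alternatives. Counting error understates noise, since PCR reads are not independent molecules.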

Additional observations from a re-analysis of the deposited data

Results flagged for a closer look

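In groups of 9 embryos, a highest or lowest value was taken as standing apart when its gap to the nearest of the others, divided by the range, was above Dixon's 95% value. This was so in 16 of 96 groups of values, where chance gives about 1 in 20, or 4.80. All 16 were highest values, and counts that are mostly 0 give such gaps easily. CONTROL embryo 6 held 5 of them: the MTB_Mm family at 1336 normalized counts (next embryo 901), MTEa-int at 74.6 (32.0), MTEb-int at 29.5 (16.8), MTB_dup4668 at 552 (312) and MTB_Mm_dup893 at 163 (90.5). Without that embryo, MTEa-int and MTEb-int were no longer past the threshold. CONTROL embryo 8 held 3, MTEb_dup10473 at 74.9 (16.6), MTEa_dup19344 at 16.3 (5.37) and MTC-int_dup2597 at 18.5 (9.98), and each of these kept its call without it. CONTROL embryo 1 held MTB_dup6143 at 33.7 (12.8).

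Of LOF embryos, embryo 10, which had the highest MTE share of all embryos, held 3: the MTE2a-int family at 18.8 (8.71), MTD_dup14424 at 9.02 (1.15), and MTB_dup6143 at 0.820, where all others were at 0. MTEa_dup3764 was at 0.241 in embryo 11 and 0 elsewhere. MTC-int_dup3333 was at 10.9 in embryo 6 (1.59), MTB_dup5213 at 4.30 in embryo 7 (1.45) and MTE2a_dup5997 at 5.81 in embryo 2 (2.93).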

How the results depend on the processing

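The scaling changed many calls and some directions. For the TBP fits, shares over all features are given above with ERCC and TMM scaling only. Counts under the other settings are therefore not read as an excess or a lack. With TMM, 40 insertions fell and 55 rose (67 and 16 with ERCC scaling, median 0.64 against 0.06), and with DESeq2's size factors 36 and 72 (median 0.72). Families lower went from 6 to 0 and families higher from 0 to 6 under both. Signs turned, with TMM and DESeq2's size factors, for MTB-int (0.62, 0.64), MTB_Mm-int (0.48, 0.51), MTC-int (0.66, 0.68), MTD (0.41, 0.43), MTE2a (0.60, 0.63), MTE2b (0.02, 0.05), MTEa (0.02, 0.04) and MTD_dup28709 (0.45, 0.52). DESeq2's test gave 62 and 12 insertions, of which 44 and 4 were among those reported, with no adjusted p for 442 insertions, and 6 families lower. edgeR's own filter kept 41 insertions, of which 5 fell and 5 rose (median 0.61), and without a filter 48 fell and 5 rose. Without LOF embryos 7 and 11, chosen after seeing the data, 26 insertions fell, 9 rose and 2 families fell, and MTB-int (0.09) and MTC-int (0.03) turned sign. Leaving out single embryos gave 53 to 76 insertions lower, 4 to 20 higher (4 without CONTROL embryo 8, 7 without LOF embryo 9, 9 without CONTROL embryo 1 or 5, 10 without CONTROL embryo 3 or LOF embryo 1 or 5) and 2 to 6 families lower. Values near 0 changed sign: the median of all insertions between -0.08 and 0.22, that of MTC insertions between -0.12 and 0.19, the MTC family between -0.09 and 0.13, MTE2b-int between -0.30 and 0.24 and MTC_dup12852 between -0.05 and 0.17.

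Embryo numbers did not pair the embryos: deviations of same-numbered embryos correlated between -0.0545 and 0.133 in 7 TBP pairs (1 over 0.1) and between -0.206 and 0.273 in 12 FOXJ3 pairs (3 over 0.1). With the number as a replicate block, 15 insertions fell, 2 rose and 0 families were lower, MTB-int was at 0.09, and FOXJ3 families stayed at 0 calls. For TBP only the 7 same-numbered pairs bear on the difference in that fit, so it rests on fewer embryos than the main fit. FOXJ3 families had 0 calls under every alternative run, with signs turned for MTE2a (0.00) with DESeq2, MTD-int (0.11) and MTEa (0.21) with ERCC scaling, MTE-int (-0.03), MTE2a (-0.21) and MTEb-int (-0.01) in batch 1, and MTB_Mm (0.10), MTC (0.11), MTD-int (0.40), MTD (0.14), MTEa-int (-0.22) and MTEa (0.07) in batch 2. The causes were not tested. Depth limits single insertions, whose median was 22.0 reads over 18 embryos.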
